A study of Mus musculus with 8 samples.

Results

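The genes described here encode chromatin remodellers and Polycomb proteins in transformed mouse embryonic fibroblasts (MEFs) with and without the long noncoding RNA Neat1. They were chosen by symbol: the Chd, Smarc, Arid and Cbx series, Ezh1, Ezh2, Eed, Suz12, Rnf2, Bmi1 and Ring1. This gave 47 of the 23420 gene symbols in the files, and 1 further Smarc gene is not analysed here. All MEFs were of C57BL6/N strain background and expressed the adenoviral oncoprotein E1A and the activated Ras protein HRasV12, so both groups were transformed cells and no untransformed control is included. The genotypes were wild-type (4 libraries) and Neat1-/- (4 libraries, called Neat1 null). The labels name no clone, sex or batch and do not say whether the 4 libraries are separate embryos or cultures. The p-values therefore cover only the spread between the libraries, part of which may be technical. By Xist, however, the Neat1 null libraries differ in sex, so they do not all come from 1 embryo. The study asked which genes differ in expression between the genotypes.

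Chromatin remodellers use ATP to slide, evict or space nucleosomes, and are named by their ATPase: the SWI/SNF, ISWI and CHD families. Polycomb proteins act in a pair of complexes that keep genes silent. PRC2 methylates histone H3 through Ezh1 or Ezh2, and PRC1 ubiquitylates histone H2A through Ring1 or Rnf2 and reads the PRC2 mark through chromobox (Cbx) proteins. In fibroblasts, Polycomb proteins are known for holding down the Cdkn2a locus, which restrains proliferation. SWI/SNF subunits are frequent tumour suppressors.

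Neat1, the check of the labels, was at 138 to 1320 CPM (counts scaled to a library of 1000000 counts) in the wild-type libraries and at 6.12 to 11.3 CPM in the Neat1 null libraries (log2 fold change -6.44, SE 0.66, edgeR adjusted p = 0.000761). The wild-type libraries held 31651625 to 37069334 counts over genes and the Neat1 null libraries 19651035 to 38950207. By Xist all 4 wild-type libraries and Neat1 null library 3 were female and the other 3 were male, so sex and genotype cannot be told apart in most of these libraries. Neat1 null libraries 1 and 3 stood apart. Library 3 held the lowest level of 29.6% of all genes tested and the highest of 3097 of the 13316. Library 1 held the fewest counts (19651035). Its chi-square over genes, per degree of freedom, was 769 to 787 against the other Neat1 null libraries. That measure was 655 and 504 for library 3 against libraries 2 and 4, and 104 between libraries 2 and 4. Each library's deviation from a gene's mean log2 CPM also ran with gene length, with slopes per doubling of exon length of 0.136 to 0.246 in wild-type libraries and of -0.477 (library 3) to 0.00698 (library 2) in Neat1 null libraries. Of the fibroblast markers, Vim (1233 to 3263 CPM) and Fn1 (431 to 1389 CPM) were high, whereas Col1a1 was at 1.29 to 12.4 CPM and Lum and Dcn were under 1 CPM in every library. Summed over their lists, fibroblast markers ranged from 1826 to 3400 CPM in wild-type and from 2587 to 4031 CPM in Neat1 null libraries, and epithelial markers from 194 to 633 and from 249 to 3181 CPM. The fibroblast sum was mostly Vim and Fn1 in every library, so it says little about the other markers on that list. Among those, Pdgfra was at 40.9 to 148 CPM in wild-type and 3.92 to 10.9 CPM in Neat1 null libraries. The highest epithelial sum was mostly Krt18, at 3144 CPM in Neat1 null library 1. In the other Neat1 null libraries Krt18 was at 179 to 865 CPM, against 149 to 568 CPM in wild-type libraries. Of the tested markers none rose, and 1 of 9 fibroblast, 1 of 1 immune and 2 of 4 neural markers fell; their part in the results was not tested. Ptprc, Cd3e, Myod1 and Krt14 were at 0 counts in all 8 libraries. These are bulk samples, in which fewer cells of a type and less RNA per cell cannot be told apart.

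Of the 47 genes, 45 had enough reads for the test, and 9 of them (20%) passed an adjusted p of 0.05 over all genes (edgeR's quasi-likelihood test with Benjamini-Hochberg adjustment), against 17.7% of the 13316 genes tested, so the share was near the background. Of these 9, Smarcb1, Arid5a and Cbx8 rose in Neat1 null cells, where 9.97% of all genes rose. Smarca1, Smarca2, Chd5, Arid3a, Arid5b and Ezh1 fell, where 7.72% of all genes fell. The 4 libraries of each group did not overlap for 10 of the 45 members (3 with Neat1 null above wild-type, 7 below), against 22.6% of all genes tested. DESeq2 passed 10 members, the same 9 and Smarcd2, against 25.8% of all genes. Leaving out any 1 of 3 libraries (wild-type 3, wild-type 4, Neat1 null 3), edgeR gave 0 members past the threshold. Of all genes tested, 18, 11 and 13 passed it in these fits (0.135%, 0.082% and 0.095%). Leaving out wild-type library 2 left 3 members (Arid5a, Smarca1 and Smarca2), against 12.9% of all genes. With library sex as a covariate, 22 members passed (5 higher, 17 lower), against 25.4% of all genes, and Chd5 and Ezh1 did not (adjusted p = 0.116 and 0.201); by its construction that fit sets Neat1 null library 3, the female of its group, against the wild-type libraries. With upper-quartile size factors 2 members rose and 7 fell, and of all genes (18.5% passed) 1036 rose and 1428 fell, against 1328 and 1028 with the TMM factors used here.

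**Figure D1:**
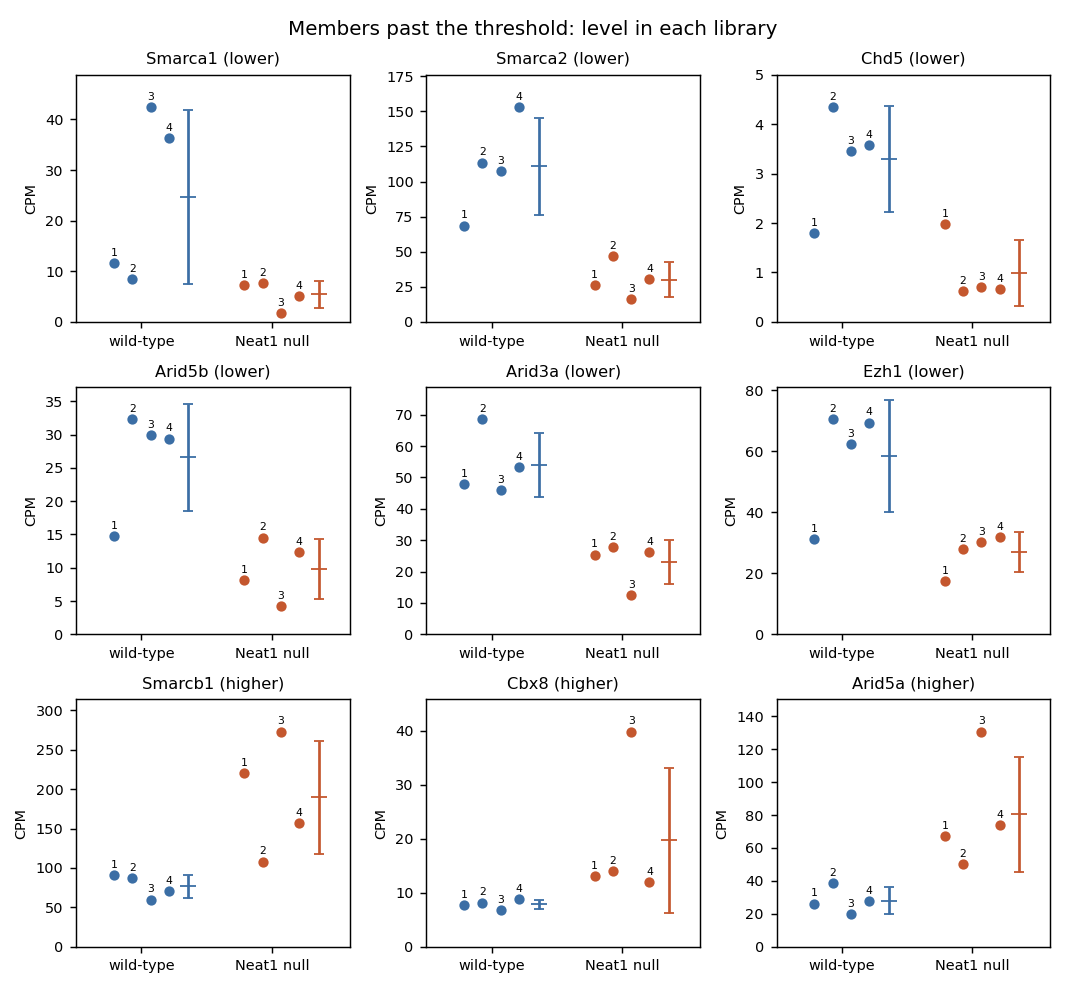
Level in CPM (vertical axis, from 0) of the 9 members past the threshold in each library: blue points are wild-type and orange points Neat1 null libraries, numbered 1 to 4, and bars show mean ± SD (n = 4). The groups overlap for Chd5 and Ezh1, and Neat1 null library 3 is the highest for Smarcb1, Cbx8 and Arid5a.

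As a group the members leaned low: 35 of 45 log2 fold changes (Neat1 null minus wild-type) were below 0, with a median of -0.43, against a median of -0.06 over all genes tested. The members' median was -0.21, with 30 below 0, without Neat1 null library 3, and -0.25, with 31 below 0, without wild-type library 1. This lean went with gene length and with Neat1 null library 3, which held the lowest level of 27 of the 45 members (60%) and the highest of 6. The tested members are long genes, with a median exon length of 7777 bases against 4457 over all genes, and 36 of 45 were longer than that. Across the 45 members the log2 fold change fell with exon length (Spearman rho -0.399, against -0.409 over 13215 genes; points share their libraries). With each library corrected for length and GC content by offsets, the members' median was 0.09, equal to the median over all genes (0.09), and 20 of 45 lay below 0. The offsets were fitted to these same libraries, whose length slopes did not overlap between the genotypes. They would also remove a change of long genes with genotype, so length trend and genotype cannot be told apart here. Under these offsets 6 members passed, against 12.5% of all genes: Smarcb1, Arid5a and Smarce1 rose and Smarca1, Smarca2 and Arid3a fell. A correction chosen after seeing the data, with the length of the coding transcript in place of all exons, left 2 members past the threshold, Arid5a (log2 fold change 1.83, adjusted p = 0.0418) and Smarca2 (log2 fold change -1.41, adjusted p = 0.0418), against 5.99% of all genes.

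**Figure D2:**
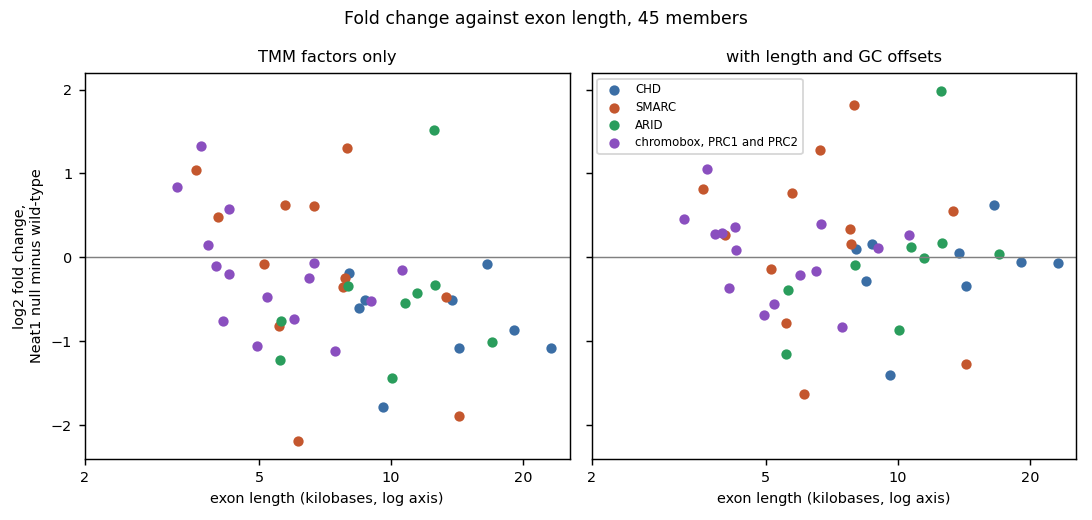
Log2 fold change (Neat1 null minus wild-type, vertical axis) of the 45 tested members against exon length in kilobases (log axis), coloured by family, before (left) and after (right) the length and GC offsets. On the left 35 points lie below 0 and on the right 20 do.

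**Figure D3:**
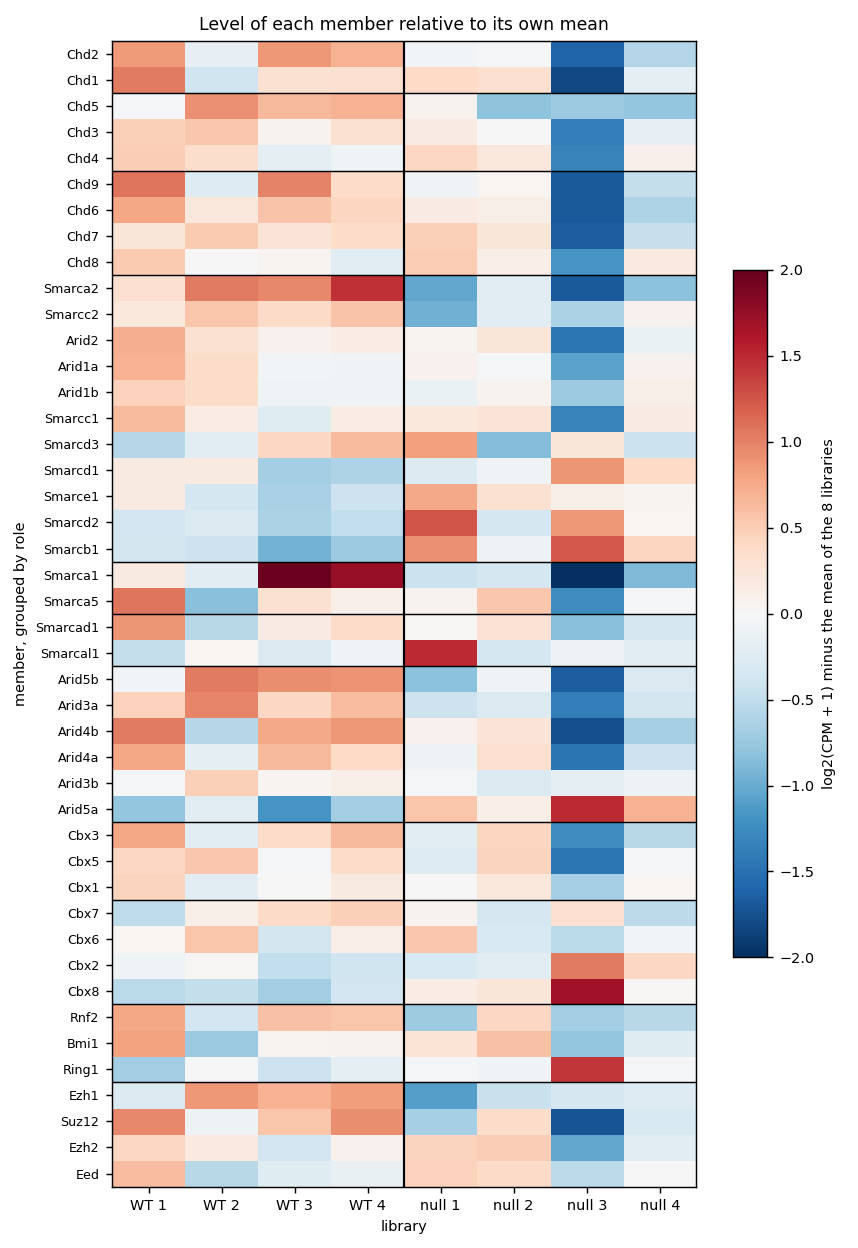
Level of 44 tested members (rows, grouped by role) in each library (columns, WT for wild-type and null for Neat1 null), as log2(CPM + 1) minus the member's mean over the 8 libraries; colours saturate at the ends of the scale. Null library 3 is the darkest blue column, and over all 45 tested members it holds the lowest value of 27.

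In the SWI/SNF complex, which opens chromatin at enhancers and promoters, the ATPase Smarca2 fell while the core subunit Smarcb1 rose. Smarca2 (BRM, 1 of the alternative ATPases; chromosome 19, 26605050 to 26778322, plus strand, GRCm38) stood at 68.7, 114, 108 and 153 CPM in wild-type libraries 1 to 4 and at 26.3, 46.7, 16.4 and 30.6 CPM in Neat1 null libraries 1 to 4; later values keep this order. No Neat1 null library reached the wild-type range, with a 3.69-fold difference between the means (111 ± 34.6 and 30.0 ± 12.6 CPM, mean ± SD, n = 4 each; log2 fold change -1.88, SE 0.39, adjusted p = 0.0180). Leaving out Neat1 null library 3 gave a log2 fold change of -1.67 (adjusted p = 0.0646). Smarcb1 (SNF5, the subunit lost in rhabdoid tumours; chromosome 10, 75896769 to 75921617, minus strand) ran the other way, at 90.5, 87.0, 59.8 and 70.2 CPM in wild-type libraries against 220.0, 108, 273 and 157 CPM in Neat1 null libraries. Here all Neat1 null libraries lay above all wild-type libraries, with means of 76.9 ± 14.4 and 189.5 ± 72.1 CPM (2.47-fold; log2 fold change 1.30, SE 0.37, adjusted p = 0.0292), and the log2 fold change without Neat1 null library 3 was 1.08 (adjusted p = 0.0678). After the length and GC offsets the log2 fold change of Smarcb1 was 1.82 (adjusted p = 0.0349). With transcript length in these offsets it was 0.90 and did not pass (adjusted p = 0.0652). Per kilobase of the longest coding transcript, Smarca2 went from 18.7 to 5.07 CPM and Smarcb1 from 46.3 to 114 CPM. The difference between these opposite changes was not tested.

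The promoters of Smarca2 and Smarcb1 are shown because these subunits of 1 complex moved in opposite directions. Each run is the RefSeq window of 300 bases (250 before and 50 after the gene's start; assembly GRCm38.p6), 5′ to 3′ on the gene's strand, in lower case with motif matches in capitals. The windows lie at chr19:26604910-26605209, plus strand and chr10:75921565-75921864, minus strand.
Smarca2: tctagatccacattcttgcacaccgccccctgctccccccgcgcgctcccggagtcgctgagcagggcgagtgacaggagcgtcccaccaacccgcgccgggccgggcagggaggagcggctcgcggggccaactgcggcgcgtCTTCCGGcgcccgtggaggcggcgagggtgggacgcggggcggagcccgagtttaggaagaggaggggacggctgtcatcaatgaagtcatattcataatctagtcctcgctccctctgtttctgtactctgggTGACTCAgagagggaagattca
Smarcb1: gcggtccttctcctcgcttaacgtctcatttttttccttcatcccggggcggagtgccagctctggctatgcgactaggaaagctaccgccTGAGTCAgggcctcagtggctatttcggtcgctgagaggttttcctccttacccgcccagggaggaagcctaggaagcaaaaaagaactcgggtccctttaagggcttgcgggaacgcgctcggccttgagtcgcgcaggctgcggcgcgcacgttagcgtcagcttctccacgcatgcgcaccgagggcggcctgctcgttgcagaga
Capitals mark CTTCCGG (the reverse complement of the ETS motif CCGGAAG) and TGACTCA in Smarca2 and TGAGTCA in Smarcb1, both forms of the AP-1 motif TGANTCA. Both strands were searched and no matches overlapped. The AP-1 letters occur in 7.08% and the ETS letters in 11.9% of 17492 protein-coding promoters of this length. A match in letters is a description and not a binding site.

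Among the other 9 SWI/SNF subunits none passed the threshold, and all but Smarcc2 overlapped between the groups. The scaffold subunits are alternatives in the complex: Smarcc1 (BAF155) was at 359.5, 257, 196 and 256 CPM in wild-type libraries against 268, 277, 91.5 and 261 CPM in Neat1 null libraries, and Smarcc2 (BAF170) at 171, 216, 192 and 219 CPM against 75.5, 127, 95.2 and 156 CPM in Neat1 null libraries. Smarcc2 was below its wild-type range in every Neat1 null library (log2 fold change -0.81, SE 0.35, adjusted p = 0.106), and Smarcc1 was low in Neat1 null library 3 alone (log2 fold change -0.25, SE 0.40, adjusted p = 0.676). Of the BAF60 subunits, which link the complex to transcription factors, Smarcd1 stood at 83.0, 82.8, 44.98 and 47.1 CPM against 59.9, 69.0, 135 and 96.5 CPM in Neat1 null libraries and Smarcd2 at 93.0, 99.9, 78.2 and 87.0 CPM against 292, 95.5, 222 and 125 CPM in Neat1 null libraries. Smarcd2 was above the wild-type range in Neat1 null libraries 1, 3 and 4 (log2 fold change 1.04, SE 0.39, adjusted p = 0.0728), and Smarcd1 in libraries 3 and 4 (log2 fold change 0.48, SE 0.37, adjusted p = 0.359). Arid1a and Arid1b are alternative DNA-binding subunits of the canonical complex, and Arid1a is often mutated in cancer. Arid1a was at 207, 164, 122 and 121 CPM in wild-type libraries against 135, 125, 59.9 and 136 CPM in Neat1 null libraries, and Arid1b at 69.8, 65.2, 47.6 and 47.6 CPM against 45.8, 52.6, 30.0 and 54.4 CPM in Neat1 null libraries. Both were lowest in Neat1 null library 3, and the groups overlapped (adjusted p = 0.414 and 0.483). Arid2, which marks the PBAF form, had a log2 fold change of -0.54 (adjusted p = 0.317), the DNA-binding subunit Smarce1 one of 0.61 (adjusted p = 0.210), and Smarcd3 one of -0.07 (adjusted p = 0.920). The value of Smarce1 was 1.28 (adjusted p = 0.0391) after the length and GC offsets. With transcript length in these offsets it was 1.08 and did not pass (adjusted p = 0.0582). Smarcd3 shares 2466 exon bases with a gene on the other strand, so part of its count is uncertain. Over the 11 tested SWI/SNF subunits the median log2 fold change was -0.25, with 7 below 0, and 0.15 after the length and GC offsets, with 4 below 0; without Neat1 null library 3 it was -0.13, with 6 below 0.

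ISWI remodellers space nucleosomes evenly, and their alternative ATPases are Smarca1 (SNF2L) and Smarca5 (SNF2H). Smarca1 (chromosome X, 47809368 to 47892974, minus strand) had the most negative log2 fold change of all members. It stood at 11.6, 8.51, 42.5 and 36.3 CPM in wild-type libraries against 7.28, 7.69, 1.799 and 5.02 CPM in Neat1 null libraries, so wild-type libraries 3 and 4 were high and the other 2 lay close above the Neat1 null range. The means were 24.7 ± 17.2 and 5.45 ± 2.70 CPM (4.54-fold; log2 fold change -2.19, SE 0.57, adjusted p = 0.0233). Smarca1 is X-linked, and the lowest value, 1.799 CPM, was in the female Neat1 null library 3, which was also the lowest for 27 of the 45 members. Leaving out that library gave a log2 fold change of -1.88 (adjusted p = 0.0731). With library sex as a covariate the log2 fold change was -3.78, in a fit that sets this 1 female library against the wild-type libraries. A part of sex in the fall of Smarca1 was not tested. Smarca5 was at 296, 78.1, 175 and 151 CPM against 148, 205, 59.0 and 139 CPM in Neat1 null libraries, with overlapping groups (log2 fold change -0.35, SE 0.45, adjusted p = 0.601). Per kilobase of the longest coding transcript Smarca5 exceeded Smarca1 in both genotypes, at 28.6 against 5.16 CPM in wild-type and 22.5 against 1.13 CPM in Neat1 null cells. The pseudogene Smarca5-ps was at 0 to 0.424 CPM and was not tested. Reads of Smarca5 that also match this processed copy could be lost or misassigned.

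CHD proteins pair a remodelling ATPase with chromodomains that bind histone tails. All 9 Chd genes had log2 fold changes below 0, with a median of -0.60, but 1 passed the threshold (17.7% of all genes did), and after the length and GC offsets the median was -0.05 with 5 below 0 and 0 called. Neat1 null library 3 held the lowest level of 8 of the 9 (all but Chd5), and omitting it gave a Chd median of -0.34, with 7 below 0. The gene that passed, Chd5 (chromosome 4, 152338651 to 152390194, plus strand), a tumour suppressor of the NuRD type expressed mostly in brain and testis, was near the lower limit of detection: 1.803, 4.35, 3.45 and 3.58 CPM in wild-type libraries against 1.98, 0.616, 0.706 and 0.659 CPM in Neat1 null libraries. Neat1 null library 1 lay inside the wild-type range and the other 3 lay below it (means 3.30 ± 1.07 and 0.989 ± 0.659 CPM; log2 fold change -1.78, SE 0.58, adjusted p = 0.0452). Without Neat1 null library 3 its log2 fold change was -1.65 (adjusted p = 0.108), and after the offsets -1.41 (adjusted p = 0.0927); the call was lost in 11 of 19 alternative settings.

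The main ATPases of the repressive NuRD complex are Chd3 and Chd4. Chd4 had the highest level per kilobase of the longest coding transcript among the Chd genes, 81.7 CPM in wild-type cells against 71.8 CPM in Neat1 null cells. It stood at 684, 619.8, 429 and 455 CPM in wild-type libraries against 645, 569, 191 and 519 CPM in Neat1 null libraries, where library 3 was low and the other 3 lay within the wild-type range. The log2 fold change was -0.19 (SE 0.42, adjusted p = 0.775), and 0.09 without that library. Chd3 was at 165, 172, 124 and 146 CPM against 133, 119, 44.7 and 105 CPM in Neat1 null libraries (log2 fold change -0.60, SE 0.37, adjusted p = 0.259). Chd1 and Chd2 act on transcribed genes. Chd1 was at 183, 66.9, 109 and 109.8 CPM in wild-type libraries against 117, 111, 24.5 and 77.7 CPM in Neat1 null libraries (log2 fold change -0.50, SE 0.46, adjusted p = 0.443). Chd2 was at 101, 49.8, 103 and 91.5 CPM against 54.0, 54.9, 17.8 and 37.0 CPM in Neat1 null libraries and had the smallest p of its subfamily (log2 fold change -1.08, SE 0.40, adjusted p = 0.0710). Wild-type library 2 was the low wild-type library for both, and Chd2 shares 2628 exon bases with a neighbour on its strand, so its count is partly uncertain. In the subfamily of Chd6, Chd7 (mutated in CHARGE syndrome), Chd8 (mutated in autism) and Chd9, the smallest p belonged to Chd9, at 93.8, 36.7, 89.0 and 57.4 CPM against 41.9, 45.4, 13.0 and 31.3 CPM in Neat1 null libraries (log2 fold change -1.07, SE 0.43, adjusted p = 0.0868). Its exon length of 23148 bases is the longest of all members, and its log2 fold change after the length and GC offsets was -0.06 (adjusted p = 0.900). Chd6 lay below the wild-type range in all Neat1 null libraries without passing (log2 fold change -0.87, adjusted p = 0.134), and Chd7 and Chd8 had log2 fold changes of -0.51 and -0.08 (adjusted p = 0.385 and 0.893).

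**Figure D4:**
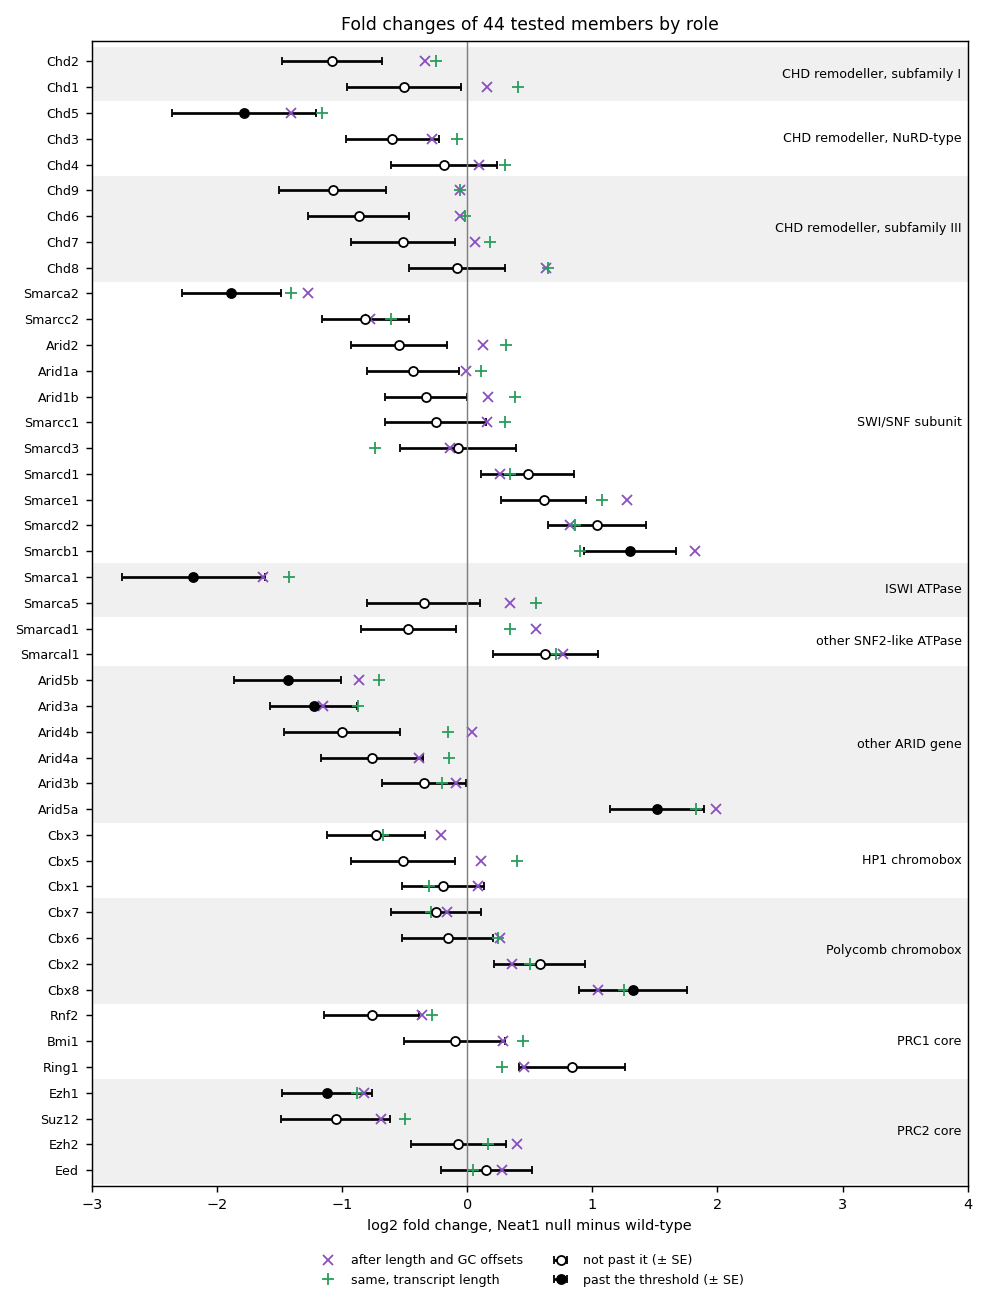
Log2 fold change (Neat1 null minus wild-type, horizontal axis) of 44 tested members by role: circles with bars are the estimate ± SE (filled past the threshold), crosses and plus signs the estimates after offsets for exon length or transcript length with GC content. The Chd genes lie from -1.78 to -0.08 before the offsets and from -1.41 to 0.63 after them.

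The ARID genes outside SWI/SNF encode DNA-binding proteins with varied roles, and 3 of the 6 tested passed the threshold (17.7% of all genes did). Arid5a, which binds RNA and stabilises inflammatory transcripts such as Il6, rose (chromosome 1, 36307733 to 36324029, plus strand). It was at 26.3, 38.7, 19.6 and 27.8 CPM in wild-type libraries against 67.1, 50.04, 131 and 74.0 CPM in Neat1 null libraries. All Neat1 null libraries lay above all wild-type libraries, with library 3 the highest (means 28.1 ± 7.93 and 80.5 ± 35.0 CPM, 2.86-fold; log2 fold change 1.52, SE 0.38, adjusted p = 0.0205). Without library 3 this log2 fold change was 1.19 (adjusted p = 0.0646). Arid5b, a partner of the demethylase Phf2 in fat and cartilage development, fell (chromosome 10, 68092520 to 68278740, minus strand): 14.7, 32.3, 29.9 and 29.4 CPM in wild-type libraries against 8.17, 14.5, 4.20 and 12.3 CPM in Neat1 null libraries. The groups did not overlap, but wild-type library 1 lay next to Neat1 null library 2 (means 26.6 ± 8.01 and 9.81 ± 4.57 CPM, 2.71-fold; log2 fold change -1.44, SE 0.43, adjusted p = 0.0340). After the offsets the log2 fold change of Arid5b was -0.87 (adjusted p = 0.0854), and without Neat1 null library 3 it was -1.17 (adjusted p = 0.0758). Arid3a, an AT-rich DNA binding protein that interacts with E2F factors, also fell (chromosome 10, 79927043 to 79955018, plus strand). It stood at 47.8, 68.6, 45.9 and 53.3 CPM against 25.4, 27.9, 12.5 and 26.3 CPM in Neat1 null libraries, with no overlap (means 53.9 ± 10.3 and 23.0 ± 7.09 CPM, 2.34-fold; log2 fold change -1.23, SE 0.35, adjusted p = 0.0289) and a log2 fold change of -1.01 without library 3 (adjusted p = 0.0646). Arid4a and Arid4b, retinoblastoma-binding subunits of the Sin3 repressor, had log2 fold changes of -0.76 and -1.003 (adjusted p = 0.191 and 0.133), against -0.38 and 0.04 after the offsets. Arid3b lay slightly below the wild-type range in all Neat1 null libraries (log2 fold change -0.34, adjusted p = 0.476). Arid3c, at 0.117 to 0.513 CPM, was not tested. So the related genes Arid5a and Arid5b moved in opposite directions; the difference between them was not tested.

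A pair of SNF2-like ATPases lies outside these complexes. Smarcal1 rewinds DNA at stalled replication forks, and was at 33.2, 47.7, 37.9 and 43.5 CPM in wild-type libraries against 132, 36.1, 42.9 and 40.1 CPM in Neat1 null libraries. Neat1 null library 1 alone was high and the other 3 lay in the wild-type range (log2 fold change 0.63, SE 0.42, adjusted p = 0.296), and omitting it brought the log2 fold change to -0.04 (adjusted p = 0.941). Smarcad1, which helps to maintain silent chromatin through replication, was at -0.47 on the same scale (SE 0.38, adjusted p = 0.383).

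Chromobox proteins read methylated histone H3. The HP1 genes are Cbx1, Cbx3 and Cbx5, and none of them passed the threshold. Cbx5 was at 505, 554, 373 and 492 CPM in wild-type libraries against 316, 516, 139 and 375 CPM in Neat1 null libraries (log2 fold change -0.51, SE 0.42, adjusted p = 0.387). Cbx1 was at 53.6, 33.5, 39.5 and 44.4 CPM against 38.8, 46.1, 24.3 and 40.0 CPM in Neat1 null libraries (log2 fold change -0.20, SE 0.33, adjusted p = 0.690). Cbx3 had the smallest p of the HP1 genes, at 59.8, 29.4, 44.8 and 54.8 CPM against 29.7, 46.8, 14.1 and 23.3 CPM in Neat1 null libraries (log2 fold change -0.73, SE 0.39, adjusted p = 0.193). Each of these genes was lowest in Neat1 null library 3, and each pair of groups overlapped.

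The Polycomb chromoboxes are alternatives within canonical PRC1, and of these Cbx8 passed the threshold. Cbx8, known for repressing Cdkn2a with Bmi1 (chromosome 11, 119036305 to 119040969, minus strand), rose, at 7.71, 8.15, 6.83 and 8.79 CPM in wild-type libraries against 13.1, 14.0, 39.8 and 11.99 CPM in Neat1 null libraries. The wild-type libraries were tightly grouped and all Neat1 null libraries lay above them, but library 3 was far above the rest. The means were 7.87 ± 0.823 and 19.7 ± 13.4 CPM (2.51-fold; log2 fold change 1.33, SE 0.43, adjusted p = 0.0465), and leaving out library 3 gave a log2 fold change of 0.74 (adjusted p = 0.135). After the length and GC offsets it was 1.048 (adjusted p = 0.0523). The call of Cbx8 was lost in 11 of 19 alternative settings, among them upper-quartile factors (adjusted p = 0.0769) and the replicate block (adjusted p = 0.0870). Cbx2 was at 26.6, 28.8, 19.9 and 21.3 CPM against 22.7, 24.4, 59.0 and 37.9 CPM in Neat1 null libraries, high in Neat1 null libraries 3 and 4 (log2 fold change 0.58, SE 0.37, adjusted p = 0.265). Cbx7, which extends the lifespan of fibroblasts when overexpressed, was at 13.6, 21.5, 25.9 and 27.8 CPM against 20.7, 15.4, 25.2 and 13.4 CPM in Neat1 null libraries with overlapping groups (log2 fold change -0.25, SE 0.36, adjusted p = 0.638). Cbx6 had a log2 fold change of -0.16 (adjusted p = 0.782) and shares 563 exon bases with a gene on its strand.

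In the catalytic core of PRC1, the ligases Rnf2 and Ring1 leaned in opposite directions without passing the threshold. Rnf2 was at 116, 51.2, 101 and 98.9 CPM in wild-type libraries against 40.7, 89.3, 41.2 and 45.1 CPM in Neat1 null libraries (log2 fold change -0.76, SE 0.38, adjusted p = 0.161). Neat1 null libraries 1, 3 and 4 lay below the wild-type range and library 2 lay inside it. Ring1 was at 8.62, 14.5, 10.6 and 12.8 CPM against 14.2, 13.7, 41.0 and 14.2 CPM in Neat1 null libraries (log2 fold change 0.84, SE 0.42, adjusted p = 0.167). Its Neat1 null library 3 was high and the other 3 sat at the upper end of the wild-type range, so that the log2 fold change without library 3 was 0.28 (adjusted p = 0.560). Bmi1, the partner that activates the ligase in canonical PRC1, overlapped between the groups (log2 fold change -0.101, SE 0.40, adjusted p = 0.871).

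PRC2 showed a fall in Ezh1, the methyltransferase typical of resting cells, while Ezh2, the form of dividing cells, did not pass the threshold. Ezh1 (chromosome 11, 101191115 to 101226463, minus strand) was at 31.3, 70.5, 62.4 and 69.4 CPM in wild-type libraries against 17.3, 27.9, 30.2 and 32.0 CPM in Neat1 null libraries. Wild-type library 1 was low, just under Neat1 null library 4, and the other 3 wild-type libraries lay far above all Neat1 null libraries (means 58.4 ± 18.4 and 26.8 ± 6.55 CPM, 2.18-fold; log2 fold change -1.12, SE 0.36, adjusted p = 0.0432). Of the 6 members that fell, Ezh1 and Chd5 were not lowest in Neat1 null library 3, and with it omitted Ezh1 had a log2 fold change of -1.17 (adjusted p = 0.0738). After the offsets it was -0.82 (adjusted p = 0.0841), and with the replicate block it did not pass (adjusted p = 0.0517); the call was lost in 13 of 19 alternative settings. Ezh2 was at 112, 96.6, 64.2 and 89.4 CPM against 115, 118, 40.4 and 71.6 CPM in Neat1 null libraries (log2 fold change -0.07, SE 0.38, adjusted p = 0.905), low in library 3 of the Neat1 null group and overlapping otherwise. Per kilobase of the longest coding transcript Ezh2 exceeded Ezh1 in both genotypes, 32.5 against 13.9 CPM in wild-type and 30.9 against 6.38 CPM in Neat1 null cells. Suz12, the scaffold on which PRC2 assembles, showed -1.051 on the log2 scale (SE 0.44, adjusted p = 0.1001), and Eed, which binds the mark PRC2 makes, showed 0.15 (SE 0.36, adjusted p = 0.783).

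The promoters of the alternative methyltransferases are shown as the pair in which 1 gene fell, again as RefSeq windows of GRCm38.p6 at chr6:47594981-47595280, minus strand and chr11:101226414-101226713, minus strand.
Ezh2: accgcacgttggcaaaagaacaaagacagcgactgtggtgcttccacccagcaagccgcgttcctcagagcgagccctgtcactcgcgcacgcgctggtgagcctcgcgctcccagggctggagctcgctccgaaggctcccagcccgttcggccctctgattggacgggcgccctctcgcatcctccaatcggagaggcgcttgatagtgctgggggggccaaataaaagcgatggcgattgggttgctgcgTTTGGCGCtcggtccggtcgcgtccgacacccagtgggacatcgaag
Ezh1: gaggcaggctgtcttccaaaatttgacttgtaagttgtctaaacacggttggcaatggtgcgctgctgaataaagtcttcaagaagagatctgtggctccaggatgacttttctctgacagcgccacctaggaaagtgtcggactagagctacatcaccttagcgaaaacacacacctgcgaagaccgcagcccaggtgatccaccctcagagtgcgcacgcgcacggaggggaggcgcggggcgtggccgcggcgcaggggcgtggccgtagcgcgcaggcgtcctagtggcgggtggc
The capitals in Ezh2 mark TTTGGCGC, 1 of the 2 forms searched of the E2F motif (the other is TTTCCCGC), and the Ezh1 window held none of the searched motifs. The E2F letters occurred in 4 of the 36 members with a RefSeq window (Cbx3, Ezh2, Smarcd1 and Suz12) and in 2.09% of all 17492 promoters. ETS letters occurred in 4 members (Arid3b, Chd8, Smarca2 and Smarcc1), AP-1 letters in 2 (Smarca2 and Smarcb1) and the CRE letters TGACGTCA in 1 (Cbx8), against 2.34% of all promoters for the last. Member promoters were rich in CG pairs, with a median of 26.5 per window against 13 over all promoters. The 4 genes with E2F letters included no member past the threshold.

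Related genes were also set against each other within each library, which removes the library's scaling except through the pseudocount. For 10 pairs, the difference in log2(CPM + 1) between both genes was compared between genotypes by an exact 2-sided permutation test over the 70 assignments of 8 libraries, where 0.0286 is the smallest p possible. None of the 10 passed after adjustment over the pairs (smallest adjusted p = 0.190). A single pair at 0.0286 cannot pass that adjustment, which would need several pairs at that p together. The lack of calls therefore says little about any pair. The smallest p was for Chd4 minus Chd3, which was 2.04, 1.84, 1.78 and 1.64 in wild-type and 2.27, 2.25, 2.07 and 2.29 in Neat1 null libraries. Every Neat1 null library exceeded every wild-type library, by 0.40 between the means (exact permutation p = 0.0286, adjusted p = 0.190). Rnf2 minus Ring1 was 3.60, 1.76, 3.14 and 2.86 in wild-type and 1.46, 2.62, 0.01 and 1.605 in Neat1 null libraries, a difference of -1.42 (exact permutation p = 0.0571, adjusted p = 0.190). The balance between these ligases was lower in Neat1 null libraries 1, 3 and 4 than in any wild-type library. Chd1 minus Chd2 differed by 0.50 (exact permutation p = 0.0571), Smarca5 minus Smarca1 by 1.51 (p = 0.114) and Ezh2 minus Ezh1 by 0.90 (p = 0.200). The difference was 0.51 for Smarcc1 minus Smarcc2, -0.43 for Smarcd1 minus Smarcd2, -0.12 for Arid1a minus Arid1b, 0.44 for Cbx1 minus Cbx5 and 0.70 for Cbx2 minus Cbx7, with exact permutation p-values of 0.171 to 0.486. With 4 libraries against 4, only a pair without any overlap can reach the smallest p.

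**Figure D5:**
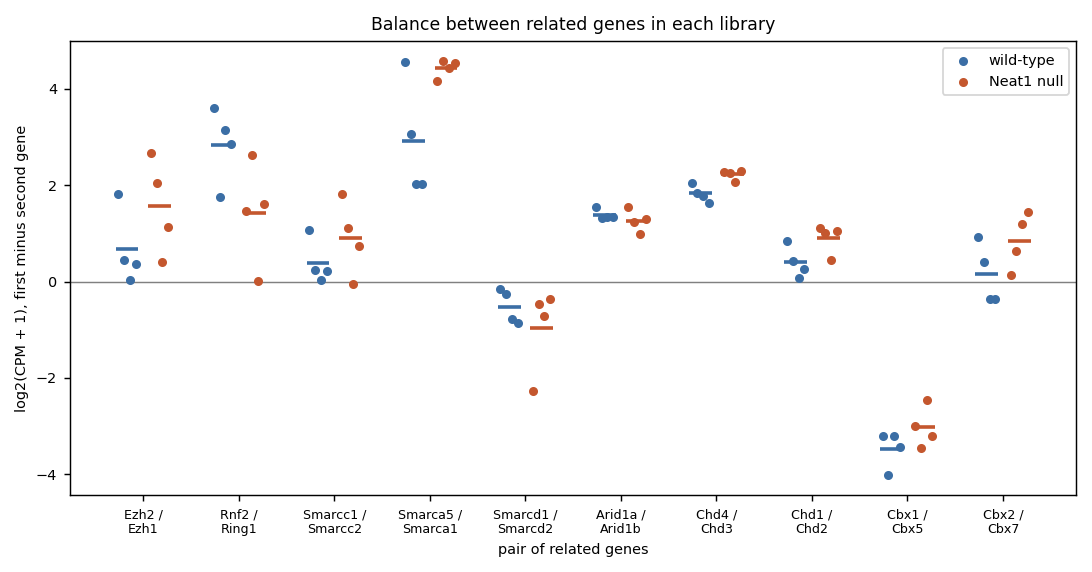
Difference in log2(CPM + 1) between related genes (vertical axis, gene named above minus gene named beneath) in each library for 10 pairs; blue points are wild-type and orange points Neat1 null libraries 1 to 4 from left to right, and lines are means (n = 4). Only Chd4 minus Chd3 shows no overlap between the genotypes.

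The other subunits of the same complexes were read from the same fit for context: 57 were in the files, 56 were tested (Actl6b was not), and 7 (12.5%, against 17.7% of all genes) passed, 5 higher and 2 lower, at a median of 0.19 on the log2 scale. Of the SWI/SNF subunits Bcl7c rose, at 23.9, 20.3, 11.8 and 11.03 CPM in wild-type libraries against 256, 39.1, 109 and 31.7 CPM in Neat1 null libraries (log2 fold change 2.70, SE 0.60, adjusted p = 0.0185). All Neat1 null libraries were above the wild-type ones, and library 1 was the highest. Mbd3, the NuRD subunit that holds the complex together, rose, at 260.4, 134, 84.2 and 101 CPM against 1045, 211, 550.1 and 321 CPM in Neat1 null libraries (log2 fold change 1.88, SE 0.53, adjusted p = 0.0282). Its groups overlapped, since Neat1 null library 2 lay under wild-type library 1. The ISWI partners Chrac1 and Pole3 are histone-fold proteins of the CHRAC complex. Chrac1 rose, at 20.2, 21.6, 15.9 and 19.4 CPM against 72.6, 32.4, 76.0 and 26.0 CPM in Neat1 null libraries (log2 fold change 1.42, adjusted p = 0.0262), with no overlap. Pole3 rose, at 41.7, 29.3, 18.7 and 28.2 CPM against 249.5, 36.2, 51.6 and 44.5 CPM in Neat1 null libraries (log2 fold change 1.69, adjusted p = 0.0499). For Pole3 the groups overlapped, with Neat1 null library 1 far above the other 3. Baz2a, which silences ribosomal DNA with Smarca5, fell below its wild-type range in every Neat1 null library, at 243, 297, 264 and 259 CPM against 139.7, 142, 59.4 and 148 CPM in Neat1 null libraries (log2 fold change -1.12, adjusted p = 0.0475). Ruvbl2, an ATPase of the INO80 and SRCAP complexes, rose, at 189, 132, 71.8 and 89.6 CPM against 253, 268, 597 and 251 CPM in Neat1 null libraries, library 3 the highest and no overlap (log2 fold change 1.50, SE 0.43, adjusted p = 0.0304). Phc3, a PRC1 subunit that polymerises, fell, at 79.3, 70.8, 102 and 92.8 CPM in wild-type libraries against 41.8, 45.7, 13.4 and 34.6 CPM in Neat1 null libraries (log2 fold change -1.35, SE 0.39, adjusted p = 0.0305), and none of the 5 PRC2 accessory subunits tested passed (edgeR, smallest adjusted p = 0.0869, for Aebp2, the 1 of them at an unadjusted p under 0.05). After the length and GC offsets 5 of these 7 did not pass: the log2 fold change was -0.40 for Phc3 (adjusted p = 0.243), -0.66 for Baz2a (0.123), 1.11 for Mbd3 (0.130), 1.28 for Pole3 (0.114) and 1.048 for Ruvbl2 (0.0728). Bcl7c and Chrac1 passed (adjusted p = 0.0349 and 0.0452). Phc2, Rbbp4 and Brd9, not past the threshold before, also passed under these offsets (edgeR adjusted p = 0.0368, 0.0379 and 0.0424). In all, 5 of the 56 other subunits passed there, all higher, against 12.5% of all genes.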

How the data were processed

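RNA-seq was made from total RNA with a stranded TruSeq kit, per the labels. The files deposited by the authors hold raw counts of reads by gene symbol, a file for each library, and were used unchanged. Named in the submitters' processing notes are CASAVA 1.8, STAR, DESeq2 and the build mm10, with no roles. The counter, its strand setting and the annotation are not given in the sources used here. Reads of genes that share exon sequence with a neighbour may have been left out as ambiguous.

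Reads outside genes (9.83% to 15.7% of wild-type counts, 5.48% to 11.04% of Neat1 null counts) and reads ambiguous between genes entered neither library sizes nor tests. Genes were filtered with filterByExpr (minimum count 10) and tested with edgeR 4.0.16 in R 4.3.3 (TMM factors, quasi-likelihood F test, robust, 2-sided, genotype only), with Benjamini-Hochberg adjustment over 13316 genes and a threshold of 0.05. CPM used TMM-scaled library sizes. No library was a repeat of another (chi-square over genes at least 62.1 times its degrees of freedom within groups). Related genes were compared as log2(CPM + 1) by exact permutation tests. The scripts were tested on simulated data.

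Alternatives were RLE and upper-quartile factors, other filters, DESeq2 1.42.0, a fit without the robust option, the replicate number as a block, library sex, length and GC offsets (splines with 5 degrees of freedom), each library left out, Neat1 null libraries 1 and 3 left out, and a pseudocount of 0.1. Exon lengths, GC content and positions came from GENCODE M21 (GRCm38, also called mm10), matched by symbol (21785 directly, 1260 through a synonym, 375 not at all). Levels per kilobase divide CPM by the length of the longest coding transcript, not by all exons. RefSeq promoters matched 36 of the 47 members.

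The members and lists were chosen with earlier results of these data known. Values of 1 tested member are not reported here; it stayed in the fit and in counts over members, and the other members are named. Values per library are given for members past the threshold, members of the pairs and the smallest p of each role where none passed, and for partner subunits those past the threshold, at most 3 per role.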

Additional observations from a re-analysis of the deposited data

Results flagged for a closer look

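Among 94 groups of 4 libraries (47 genes in each genotype), 9 held a library whose gap to its neighbour exceeded Dixon's 95% critical value for the range, where chance flags about 1 in 20 groups. Of these, 8 were in the Neat1 null group, and library 3 accounted for 5 and library 1 for 2. Neat1 null library 3 was the lowest for Arid1a (59.9 CPM, the others 125 to 136), Arid3a (12.5 CPM, the others 25.4 to 27.9) and Smarcc1 (91.5 CPM, the others 261 to 277). It was the highest for Cbx8 (39.8 CPM, the others 11.99 to 13.99) and Ring1 (41.0 CPM, the others 13.7 to 14.2). Neat1 null library 1 was the highest for Chd5 (1.98 CPM, the others 0.616 to 0.706) and Smarcal1 (132 CPM, the others 36.1 to 42.9). Neat1 null library 2 was the highest for Rnf2 (89.3 CPM, the others 40.7 to 45.1), and wild-type library 1 was the lowest for Arid5b (14.7 CPM, the others 29.4 to 32.3). Outside the gene counts, the share of reads ambiguous between genes was at least 1.34% in every Neat1 null library, above the 1.09% to 1.22% of the wild-type libraries.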

How the results depend on the processing

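None of the 9 members past the threshold changed direction under any of the 19 alternatives, which refit the same or fewer of the libraries that selected them. Each of the 9 lost its call in at least 4 of the 19, and Ezh1 in 13. Over all 45 members and these alternatives, 710 of the values kept direction and side of the threshold, 68 kept direction and lost the threshold, 20 gained it and 57 changed direction; the cause of each change was not tested. Leaving out 1 library at a time, the number past the threshold ranged from 11 to 2965 for all genes (1 to 1708 higher, 6 to 1388 lower), from 0 to 9 for members (0 to 4 higher, 0 to 6 lower) and from 0 to 10 for the other subunits (0 to 8 higher, 0 to 2 lower). Without Neat1 null libraries 1 and 3 together, 7 of all genes (0.0497%) passed in edgeR (5 higher, 2 lower), with 0 members and 0 other subunits. With exon length and GC offsets, 649 of all genes and 3 members fell, and 0 other subunits fell. With transcript length and GC offsets, chosen after seeing the data, 798 of all genes (441 higher, 357 lower), 2 members (1 higher, 1 lower) and 2 other subunits (2 higher, 0 lower) passed. These 2 subunits were Rbbp4 and Phc2 (edgeR adjusted p = 0.0477 and 0.0474). Bcl7c and Chrac1 did not pass in that fit (edgeR adjusted p = 0.0513 and 0.164). With library sex as a covariate, 1595 of all genes fell, 22 members (5 higher, 17 lower) and 20 other subunits (9 higher, 11 lower) passed. DESeq2 passed 12 other subunits (9 higher). Under RLE size factors, no low-count filter and the replicate block 1 other subunit fell, in place of 2. Upper-quartile size factors moved the median of all genes from -0.06 to -0.24. The fit with the replicate block, which pairs libraries by their number, passed 7 members (2 higher, 5 lower) and 2245 of all genes, and the members lost were Cbx8 and Ezh1. The labels do not say whether the numbers pair the libraries. Same-numbered libraries' deviations from their group means correlated at 0.317, -0.258, -0.014 and 0.107, and 1 of the 4 pairs correlated best with its own number. With so few pairs these correlations cannot exclude a shared litter or preparation. Log2 fold changes that changed direction after exon length and GC offsets were 0.10 for Chd4, 0.16 for Chd1, 0.059 for Chd7, 0.63 for Chd8, 0.11 for Cbx5, 0.086 for Cbx1, 0.34 for Smarca5, 0.040 for Arid4b, 0.55 for Smarcad1, 0.27 for Cbx6, 0.29 for Bmi1, 0.40 for Ezh2, 0.13 for Arid2, 0.17 for Arid1b and 0.15 for Smarcc1. Log2 fold changes that changed direction after transcript length and GC offsets were 0.30 for Chd4, 0.41 for Chd1, 0.18 for Chd7, 0.64 for Chd8, 0.40 for Cbx5, 0.55 for Smarca5, 0.34 for Smarcad1, 0.25 for Cbx6, 0.44 for Bmi1, 0.17 for Ezh2, 0.31 for Arid2, 0.11 for Arid1a, 0.38 for Arid1b and 0.30 for Smarcc1. Log2 fold changes that changed direction with library sex as a covariate were 0.18 for Cbx7, -0.52 for Eed and 0.11 for Smarcd3. The 1 log2 fold change that changed direction with upper-quartile size factors was -0.011 for Eed. Log2 fold changes that changed direction without Neat1 null libraries 1 and 3 were 0.044 for Chd8, 0.0074 for Cbx1, -0.10 for Smarcal1, 0.089 for Bmi1, 0.068 for Ezh2 and 0.0067 for Smarcc1. Leaving out 1 library at a time changed the direction of 9 log2 fold changes, whose ranges were -0.35 to 0.088 for Chd4, -0.27 to 0.18 for Chd8, -0.59 to 0.048 for Smarca5, -0.037 to 0.83 for Smarcal1, -0.41 to 0.024 for Cbx6, -0.34 to 0.22 for Bmi1, -0.25 to 0.17 for Ezh2, -0.37 to 0.019 for Smarcc1 and -0.48 to 0.18 for Smarcd3. Among the pairs, Smarcd1 minus Smarcd2 ranged from -0.63 to 0.0049 leaving out 1 library and was 0.10 without Neat1 null libraries 1 and 3, and Cbx1 minus Cbx5 was -0.047 after exon length and GC offsets and -0.75 after transcript length and GC offsets. No pair passed an adjusted p of 0.05 in the settings run, where a single pair at the smallest possible p could not pass. The smallest p the exact test allows was 0.0667 without Neat1 null libraries 1 and 3 and 0.125 with the replicate block. In either of these settings no pair could pass. Arid3c and Smarca5-ps had too few reads to test, and Chd5, past the threshold, was under 5 CPM in every library.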
